A study of Mus musculus with 11 samples.

Results

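Remission of relapsing-remitting experimental autoimmune encephalomyelitis (EAE) was compared directly with onset of the disease in the choroid plexus (CP) of SJL mice. The comparison rests on 6 of the 11 pools of the study, 3 remission pools against 3 onset pools, and the 3 control pools give the level from which onset had departed. Each pool held the CP of 3 perfused female mice, which were 6 to 8 weeks old. Remission and onset mice had been immunized with a proteolipid protein (PLP) peptide in Complete Freund's Adjuvant (CFA) and given pertussis toxin. Control mice received PBS in place of the peptide, with the same adjuvant and toxin. Control and onset mice were killed on day 14, and the phase of complete remission lay between days 19 and 22, so remission and onset differ in collection day as well as in phase. Pooling leaves the spread between single mice unmeasured, and the p-values below measure the spread between pools. Gene expression was read on Illumina MouseRef-8 arrays, and values are log2 of the quantile-normalized probe signal, on which a difference of 1 is a doubling. All 23978 probes were tested, and 15946 genes stand by the probe with their highest mean signal.

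The CP is a sheet of epithelial cells over a vascular stroma that secretes the cerebrospinal fluid and forms the barrier between blood and that fluid. Its capillaries are fenestrated, and its stroma holds macrophages and other leukocytes. Cytokines reaching it act through a few well-known routes. Interleukin-6 family cytokines signal through STAT3, which induces the feedback inhibitor Socs3 and acute phase genes. Interferon gamma induces immunity-related GTPases, guanylate-binding proteins and MHC genes. Glucocorticoids induce a further set that includes metallothioneins.

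The tissue label was borne out by Ttr, the transthyretin of CP epithelium, which lay between 16.07 and 16.13 in the remission pools, between 16.07 and 16.14 in the onset pools and between 15.84 and 16.14 in the control pools. Each pool had 8687 to 10221 probes with a detection p-value under 0.01 against the negative controls of the array, here called above background, and the number of arrays limits the precision of every value. Because whole tissue was measured, fewer cells of a type and less RNA per cell cannot be told apart.

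Remission pool 3 and onset pool 3 were nearly the same. Over the 10012 probes above background in both, their median absolute log2 difference was 0.0596 and 0 probes differed by more than 1. In the other 54 pairs of pools the median difference ran between 0.0885 and 0.198, and between 7 and 266 probes differed by more than 1. Remission pool 3 differed by more than 1 from onset pools 1 and 2 at 16 and 9 probes. From remission pools 1 and 2 it differed at 47 and 24 probes. By the median difference, remission pool 2 (0.098) was nearer to it than onset pools 1 (0.107) and 2 (0.116), and remission pool 1 (0.138) was farther. Prl, the prolactin of the pituitary, stood at 14.25 in remission pool 3 and 14.17 in onset pool 3. In the remaining remission pools Prl was 12.12 and 12.04, in the remaining onset pools 7.78 and 9.07, and in the control pools between 10.71 and 12.96. Gh, the pituitary growth hormone, was likewise 11.33 in remission pool 3 and 11.25 in onset pool 3. The labels describe both pools as separate samples, and whether they share material was not tested. The main counts and list medians are therefore given with all 6 pools and without this pair, and single genes mostly without it.

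**Figure D1:**
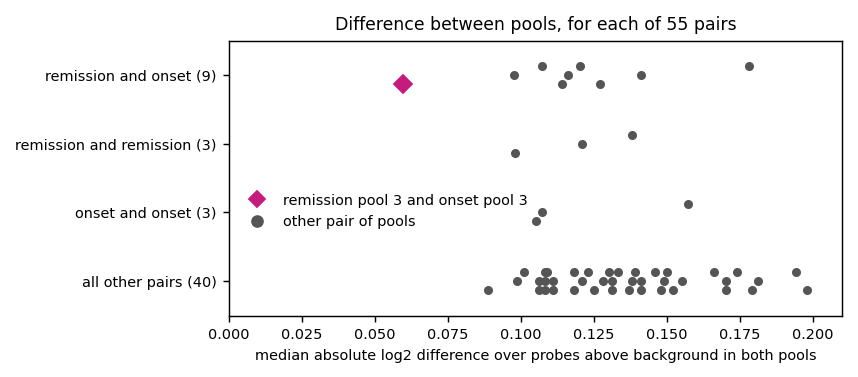
Difference between pools, one point for each of the 55 pairs of the 11 pools. The x axis is the median absolute log2 difference over probes above background in both pools. The pair of remission pool 3 and onset pool 3 (diamond) lies at 0.0596, and the other 54 pairs lie at 0.0885 or more.

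With all 6 pools, no probe passed limma's moderated test between remission and onset at an adjusted p under 0.05. The share called was 0% in the lower direction and 0% in the higher one, and the smallest adjusted p was 1. At an unadjusted p under 0.05, 548 probes were lower and 435 higher. Counted in genes, 373 were lower (2.34%) and 295 higher (1.85%). The groups of 3 pools did not overlap for 674 genes that were lower at remission, which is 4.23% of those tested, and for 723 that were higher, which is 4.53%. The median remission minus onset difference over all genes was 0.0043 and 48.1% of genes lay below zero. Quantile normalization gives all pools the same distribution, so these values are set by the scaling and cannot show a shift of all genes. An exact permutation test of 3 pools against 3 cannot give a p below 0.1.

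Without the pair, 44 probes passed the test, 37 lower at remission (0.154% of probes) and 7 higher (0.0292%). They hold 33 named genes that were lower (0.207% of genes) and 2 that were higher (0.0125%). At an unadjusted p under 0.05, 2.92% of genes were lower and 2.68% higher. Remission pool 3 was left out because its values lie near those of an onset pool, so the kept pools were chosen by their values and these p-values hold on those terms only. An exact permutation test of 2 pools against 2 cannot give a p below 0.333. The smaller p-values of limma's test draw on a spread shared over groups and probes. Leaving out remission pool 3 alone gave 58 probes lower and 13 higher, whereas leaving out onset pool 3 alone gave 0. The predominance of lower probes also rested on the kept remission pools. With a further pool left out, 6 probes were lower and 6 higher without remission pool 1, 10 lower and 11 higher without remission pool 2, 16 lower and 7 higher without onset pool 1, and 39 lower and 6 higher without onset pool 2.

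The omitted pools were set beside the same 44 probes as a description. Onset pool 3 lay beyond remission pools 1 and 2, on the side of onset pools 1 and 2, at 44 of the 44 probes, against 50.3% of all probes. By the same measure remission pool 3 also lay on the onset side at 44 of the 44, and its share over all probes was not computed. Remission pool 3 lay nearer to onset pools 1 and 2 than to remission pools 1 and 2 at 39 of the 44, against 55.2% of all probes. Remission pool 3 had been left out for its likeness to onset pool 3, so its place on the onset side follows from that choice. Of the 37 lower probes, 27 had been called higher at onset than in control with all pools, beside 254 of all 23978 probes. Both comparisons use onset pools 1 and 2, so some of this overlap is built into the choice of probes. The overlap was not tested. The map of these probes shows the pattern pool by pool.

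**Figure D2:**
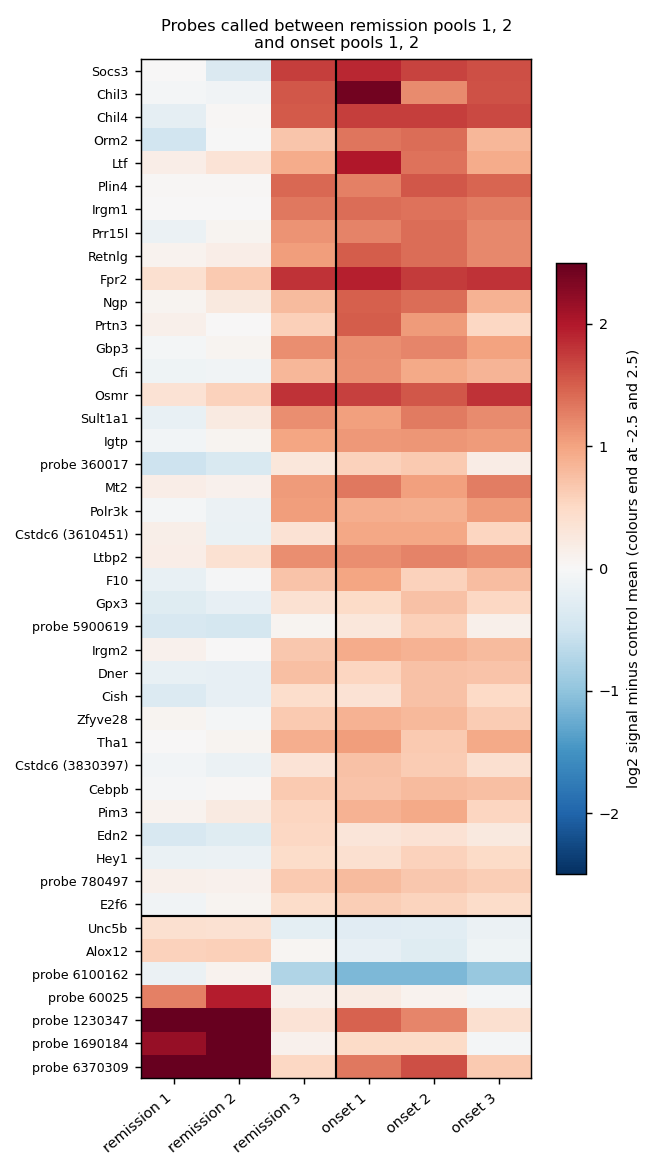
Log2 signal minus the control mean for the 44 probes called without the close pair, with remission pools in the left columns and onset pools in the right ones. Lower probes are above the horizontal line, ordered by their difference, and remission pool 3 is coloured like the onset pools for most of them.

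The genes of the acute phase and IL-6 family list are described before the others. Socs3, the inhibitor that STAT3 induces against its own receptor, was 10.43 and 10.07 in remission pools 1 and 2 and 12.15 in remission pool 3, against 12.32, 12.12 and 12.04 in the onset pools and 10.34, 10.48 and 10.49 in control. Remission pools 1 and 2 were near the control pools and remission pool 3 was inside the onset range. Without the pair the log2 difference was -1.97 (SE 0.13, adjusted p = 0.000296), a ratio of 0.256 of remission over onset. With all pools it was -1.27 (SE 0.37) with an adjusted p of 1. Osmr, the receptor subunit for oncostatin M, was 10.14, 10.35 and 11.57 at remission, against 11.48, 11.32 and 11.58 at onset and 9.90, 9.58 and 9.83 in control. Without the pair Osmr differed by -1.15 (adjusted p = 0.00648), and its remission pools all stayed above every control pool. Cebpb, a transcription factor of the acute phase response, was 11.32, 11.36 and 11.99 at remission and 12.06, 12.13 and 12.09 at onset, with a control mean of 11.34. Its difference without the pair was -0.76 (adjusted p = 0.0223). Outside this list, Pim3, a kinase that STAT3 can induce, differed by -0.75 (adjusted p = 0.0338). Cish, a STAT5-induced member of the Socs family and also not on the list, differed by -0.82 (adjusted p = 0.0486). Stat3 itself did not pass, at -0.55 (adjusted p = 0.393).

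Among secreted acute phase proteins, Orm2, an orosomucoid carried in plasma, was 7.65, 8.11 and 8.81 at remission, against 9.45, 9.51 and 8.95 at onset. It was above background in 1 remission pool, in 3 onset pools and in 0 control pools. Remission pools 1 and 2 were below background, so without the pair it was at least 1.45-fold lower at remission (adjusted p = 0.00264). Such bounds set the brighter group against the detection limit of the dim arrays. Saa3, an acute phase serum amyloid, was 9.52, 10.25 and 12.20 at remission, against a mean of 12.23 at onset. It did not pass (adjusted p = 0.177 without the pair), and its remission pools 1 and 2 differ by more than those of Socs3. Of 33 measured genes of the acute phase and IL-6 family list, 12 were lower at an unadjusted p under 0.05 with all pools and 0 higher, beside 2.34% and 1.85% of all genes. Without the pair 4 of the 33 passed the adjusted test, beside 0.207% of all genes. The list median was -0.11, and -0.22 without the pair, beside 0.0043 over all genes. Il6, the cytokine, was above background in no remission, onset or control pool.

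The chitinase-like genes Chil3 and Chil4, which encode secreted proteins of activated macrophages and airway epithelium in mice, stood beside these. Chil4 was 7.73, 7.98 and 9.50 at remission, against 9.68, 9.68 and 9.61 at onset and a control mean of 7.96. It was below background in remission pools 1 and 2 and at least 1.67-fold lower there without the pair (adjusted p = 0.000162). Chil3 was 8.02, 7.98 and 9.61 at remission, against 10.47, 9.24 and 9.65 at onset, at least 1.88-fold lower (adjusted p = 0.0486). The paralogs are closely related in sequence, and how far each probe reads the other was not tested.

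**Figure D3:**
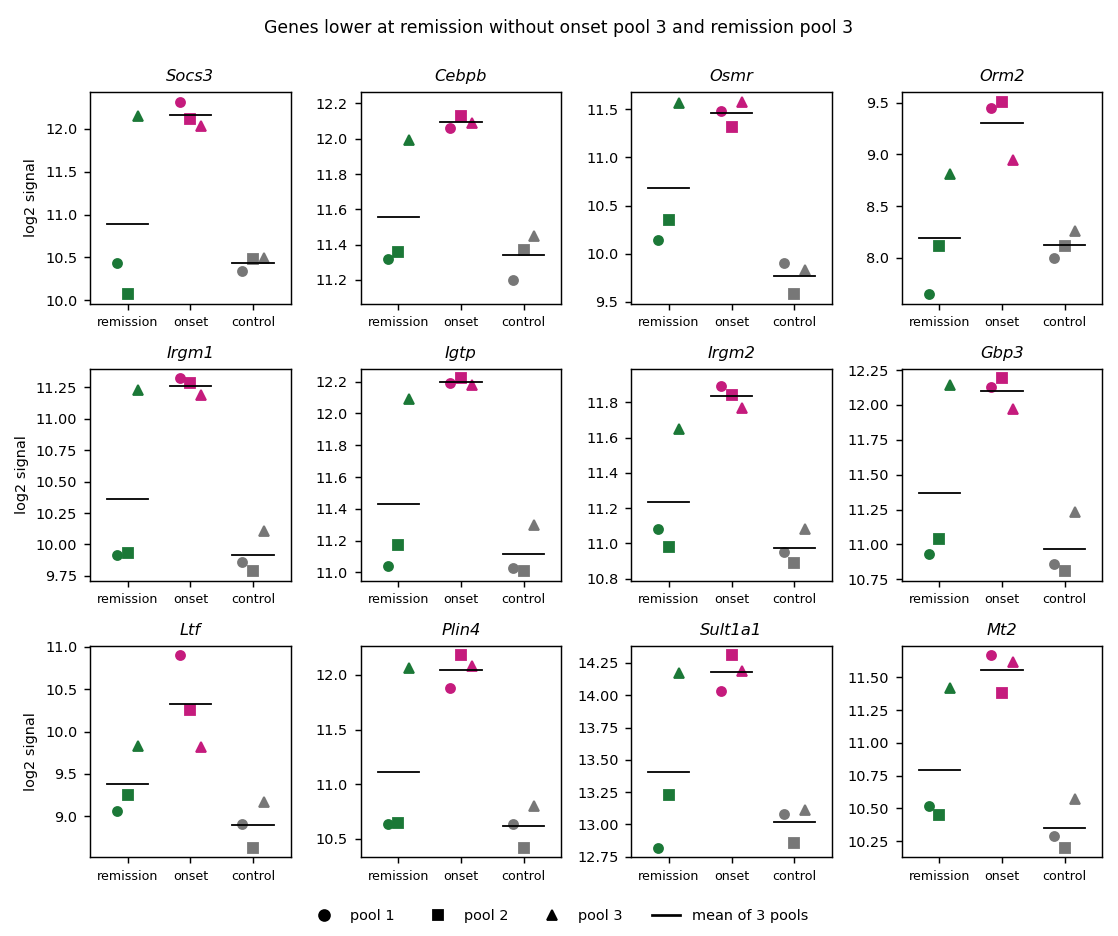
Log2 signal of 12 genes called lower at remission without the close pair, per pool, with remission, onset and control from left to right. Symbols mark the pool number and lines the mean of 3 pools, and remission pools 1 and 2 lie near control and remission pool 3 near onset in most panels, as for Irgm1 at 9.92, 9.93 and 11.23.

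A second group consisted of interferon gamma-induced GTPases. 4 of 25 measured genes of this list passed without the pair, beside 0.207% of all genes, and all were lower: Irgm1, Igtp, Irgm2 and Gbp3. Irgm1 was 9.92, 9.93 and 11.23 at remission, against 11.32, 11.28 and 11.19 at onset and 9.86, 9.79 and 10.11 in control, a difference of -1.38 (SE 0.12, adjusted p = 0.00208) without the pair. Igtp was 11.04, 11.17 and 12.09 at remission, against 12.19, 12.22 and 12.18 at onset, a difference of -1.10 (adjusted p = 0.00591). Remission pools 1 and 2 of both genes overlapped the control pools. Irgm2 was 11.08, 10.98 and 11.65 at remission, against 11.89, 11.84 and 11.77 at onset, and Gbp3, a guanylate-binding protein, was 10.93, 11.04 and 12.14 against 12.13, 12.19 and 11.97. Irgm2 differed by -0.84 (adjusted p = 0.00843) and Gbp3 by -1.18 (adjusted p = 0.00869). Cxcl9, a chemokine that interferon gamma induces, was 9.48, 9.80 and 10.83 at remission and 11.45, 10.76 and 10.78 at onset, and did not pass (adjusted p = 0.197). The list did not move as one, and 15 of its 25 measured genes were above background in at least 1 of the 11 pools. Its median was -0.11 with all pools and -0.12 without the pair, its members at an unadjusted p under 0.05 with all pools were 10 lower and 1 higher, beside 2.34% and 1.85% of all genes, and Irf8, described further on, lay near its onset level.

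The promoters of these 4 genes are shown because they moved together and all hold 2 copies of GAAA with any 2 bases between them, a pattern that interferon regulatory factors are known to bind. The windows run from 250 bases before to 50 after the gene start (RefSeq, GRCm38.p6), and capitals mark every match on either strand, overlapping matches included. Irgm1 lies at chr11:48871371-48871670 on the minus strand, Igtp at chr11:58199306-58199605 and Irgm2 at chr11:58214727-58215026 on the plus strand, and Gbp3 at chr3:142559794-142560093 on the plus strand. In Gbp3 the matches read on the opposite strand, and overlapping matches merge into 1 run of capitals in Irgm1 and Gbp3.
Irgm1: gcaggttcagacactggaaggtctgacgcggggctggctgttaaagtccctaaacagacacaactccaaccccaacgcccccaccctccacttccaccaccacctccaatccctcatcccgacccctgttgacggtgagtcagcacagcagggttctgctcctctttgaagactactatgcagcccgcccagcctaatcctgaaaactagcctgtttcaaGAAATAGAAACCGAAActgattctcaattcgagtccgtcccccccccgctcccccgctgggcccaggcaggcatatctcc
Igtp: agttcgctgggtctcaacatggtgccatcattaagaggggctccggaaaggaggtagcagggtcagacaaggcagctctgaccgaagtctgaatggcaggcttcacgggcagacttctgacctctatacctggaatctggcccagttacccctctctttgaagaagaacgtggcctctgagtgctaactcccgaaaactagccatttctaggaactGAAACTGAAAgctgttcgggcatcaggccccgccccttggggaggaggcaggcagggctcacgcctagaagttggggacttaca
Irgm2: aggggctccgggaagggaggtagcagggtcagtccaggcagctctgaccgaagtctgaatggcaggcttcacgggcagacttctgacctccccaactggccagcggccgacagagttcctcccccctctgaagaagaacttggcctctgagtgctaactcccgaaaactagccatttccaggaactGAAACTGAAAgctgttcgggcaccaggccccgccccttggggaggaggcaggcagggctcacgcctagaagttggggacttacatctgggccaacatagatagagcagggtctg
Gbp3: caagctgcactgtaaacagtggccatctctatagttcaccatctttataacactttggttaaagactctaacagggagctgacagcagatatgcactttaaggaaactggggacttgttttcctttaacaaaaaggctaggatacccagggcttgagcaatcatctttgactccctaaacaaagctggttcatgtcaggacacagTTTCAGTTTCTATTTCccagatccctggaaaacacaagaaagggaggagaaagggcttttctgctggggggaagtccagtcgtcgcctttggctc
The first match begins 30 bases before the gene start in Irgm1, 34 in Igtp, 64 in Irgm2 and 45 in Gbp3. Of 12854 measured genes with a promoter sequence, 4.08% hold this pattern. Among the genes called lower without the pair, 29 of 33 had a sequence, and the pattern was found in 4 of the 4 GTPases and in 0 of the other 25. The Igtp and Irgm2 windows share long runs of the same bases, also around the match, so these genes do not count as separate instances. The patterns were chosen after these genes were known, and a match describes letters only.

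The STAT pattern TTCNNNGAA was found in 7 of the 29 genes and in 8.91% of measured genes. The 7 were Socs3, Cish, Chil3, Chil4, Fpr2 and the GTPases Igtp and Irgm2, whose windows are much alike as shown above. TTGCNNAA, a core that C/EBP factors bind, was found in 7 of the 29 and in 11.6% of measured genes. These 7 were Orm2, Chil4, Gbp3, Mt2 and the neutrophil genes Ltf, Ngp and Retnlg. Socs3 (chr11:117969317-117969616, minus strand) is shown with the first pattern in capitals and Ngp (chr9:110419558-110419857, plus strand) with the second, which occurs there on both strands.
Socs3: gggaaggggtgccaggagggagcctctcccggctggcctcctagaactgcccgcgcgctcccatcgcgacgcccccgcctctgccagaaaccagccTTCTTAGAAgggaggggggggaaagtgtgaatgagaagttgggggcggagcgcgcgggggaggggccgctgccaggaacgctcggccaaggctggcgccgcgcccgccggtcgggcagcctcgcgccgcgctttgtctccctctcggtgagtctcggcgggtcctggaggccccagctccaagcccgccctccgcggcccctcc
Ngp: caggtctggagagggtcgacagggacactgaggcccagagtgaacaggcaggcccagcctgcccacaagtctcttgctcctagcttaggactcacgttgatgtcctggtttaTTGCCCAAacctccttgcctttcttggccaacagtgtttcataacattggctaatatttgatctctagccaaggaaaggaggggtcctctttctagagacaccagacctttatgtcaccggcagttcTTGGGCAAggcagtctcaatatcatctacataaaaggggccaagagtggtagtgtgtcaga
The Socs3 match begins 154 bases before the gene start and the first Ngp match 138 bases before it.

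Neutrophil genes formed the third group. Of 26 measured genes of the neutrophil granule list, 15 were above background in at least 1 of the 11 pools. At an unadjusted p under 0.05 with all pools, 16 of the 26 were lower at remission and 0 higher, beside 2.34% and 1.85% of all genes. Some of the 16 were therefore never above background. The list median was -0.30. Without the pair the median was -0.46 and 5 genes passed, beside 0.207% of all genes, which were Ltf, Retnlg, Ngp, Prtn3 and the formyl peptide receptor Fpr2. Ltf, the lactoferrin of specific granules, was 9.06, 9.25 and 9.83 at remission, against 10.90, 10.25 and 9.82 at onset and 8.91, 8.63 and 9.17 in control, a difference of -1.42 (adjusted p = 0.0343). Onset pool 1 was the highest of all, and the pair was alike. Retnlg was 8.52, 8.59 and 9.47 at remission and 9.95, 9.82 and 9.63 at onset, at least 1.92-fold lower without the pair (adjusted p = 0.0254). Ngp was 8.39, 8.58 and 9.12 against 9.83, 9.73 and 9.19, at least 1.79-fold lower (adjusted p = 0.0311). Prtn3, the serine protease of azurophil granules, was above background in 0 remission pools and 2 onset pools and at least 1.33-fold lower (adjusted p = 0.00679).

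Brighter neutrophil genes had larger differences and larger standard errors. S100a8, a calprotectin subunit, was 11.38, 11.57 and 12.91 at remission, against 13.65, 13.11 and 12.81 at onset and 11.01, 9.81 and 11.41 in control. Its difference without the pair was -1.90 (SE 0.40, adjusted p = 0.183). Lcn2, a siderophore-binding lipocalin, was 10.21, 11.12 and 12.75 at remission and 13.40, 13.13 and 12.86 at onset, a difference of -2.60 (SE 0.52, adjusted p = 0.167). In both genes remission pools 1 and 2 lay below all onset pools, and neither gene passed the test. The median level of the list above the control mean was 0.11, 0.10 and 0.58 in the remission pools and 0.80, 0.39 and 0.46 in the onset pools. The acute phase list stood at 0.03, -0.01 and 0.20 in the remission pools and 0.36, 0.08 and 0.32 in the onset pools. The part of neutrophil number in the other results was not tested.

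Glucocorticoid targets and metallothioneins formed the fourth group. Over 29 measured genes the median was -0.32 with all pools and -0.47 without the pair. Of the 29, 25 were above background in at least 1 of the 11 pools. With all pools 13 genes were lower at an unadjusted p under 0.05 and 0 higher, beside 2.34% and 1.85% of all genes. Plin4, a lipid droplet coat protein, Sult1a1, a sulfotransferase, and Mt2, a zinc-binding metallothionein, passed without the pair, 3 of 29 beside 0.207% of all genes. Plin4 was 10.64, 10.65 and 12.06 at remission, against 11.88, 12.18 and 12.08 at onset and 10.64, 10.42 and 10.80 in control (difference -1.38, adjusted p = 0.00378). Sult1a1 was 12.82, 13.23 and 14.17 at remission, against 14.03, 14.31 and 14.19 at onset (-1.14, adjusted p = 0.0197). Mt2 was 10.52, 10.45 and 11.42 against 11.67, 11.38 and 11.62 (-1.04, adjusted p = 0.0295). Remission pools 1 and 2 of all 3 genes were below every onset pool. Fkbp5, the glucocorticoid receptor co-chaperone, was 9.33, 9.89 and 10.76 at remission and 10.57, 10.84 and 10.79 at onset and did not pass (-1.10, adjusted p = 0.111). Per1, a further target of the receptor, did not pass either, at -0.65 (adjusted p = 0.785).

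The remaining lower genes were of mixed function. Gpx3, a secreted glutathione peroxidase, was 10.86, 10.95 and 11.55 at remission and 11.63, 11.90 and 11.68 at onset, so that remission pools 1 and 2 were also below the control pools, which lay between 11.06 and 11.25. Its difference was -0.86 (adjusted p = 0.0219). Cfi, the complement protease that inactivates C3b, was at least 1.62-fold lower (adjusted p = 0.0343). Dner, a Notch-binding transmembrane protein, and Hey1, a Notch target, differed by -0.83 (adjusted p = 0.0247) and by -0.64 (adjusted p = 0.0413). Ltbp2, a matrix protein of elastic fibers, differed by -0.93 (adjusted p = 0.0448) and Polr3k, an RNA polymerase III subunit, by -0.99 (adjusted p = 0.00737). Tha1, E2f6, Zfyve28, Prr15l and F10 also passed. Cstdc6, with 2 probes, and Edn2 passed as well, but were above background in none of the remission, onset and control pools, so no fold is given for them. Of the 3 lower probes with no gene name, 2 were below the control pools in remission pools 1 and 2.

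Higher probes were few. Alox12, a lipoxygenase of platelets and epithelium, was 9.47, 9.48 and 8.93 at remission, against 8.69, 8.58 and 8.78 at onset and 8.95, 8.87 and 8.85 in control. Its difference was 0.84 (adjusted p = 0.00592) without the pair, at least 1.5-fold, and remission pools 1 and 2 were above all control pools. Unc5b, a netrin receptor of endothelium, was 9.20, 9.19 and 8.56 at remission and 8.52, 8.54 and 8.65 at onset, and rose by at least 1.23-fold (adjusted p = 0.019). No gene name is given here for the other 5 probes. Probe 6370309 was 12.39, 12.37 and 9.12 at remission, against 9.92, 10.23 and 9.26 at onset and 8.51, 8.59 and 8.74 in control, a difference of 2.30 (adjusted p = 0.000162). Probe 1230347 was 11.40, 11.37 and 8.40 at remission and 9.53, 9.28 and 8.47 at onset, and probe 1690184 was 10.63, 11.50 and 8.57 against 8.94, 8.93 and 8.42. Among the remission, onset and control pools, all 3 probes were highest in remission pools 1 and 2. They were lower in onset pools 1 and 2 and lower again in both members of the pair. Without the pair all 3 also passed limma's test against control at remission (adjusted p = 6.56e-07, 2.84e-06 and 0.000851). The high level was not particular to remission, as both relapse pools were higher still. They stood at 12.6 and 12.88 for probe 6370309, 11.6 and 11.8 for probe 1230347, and 12.18 and 12 for probe 1690184.

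Histone genes had a median difference above zero, at 0.15 with all pools and 0.23 without the pair. Of 49 measured genes, 9 were higher at an unadjusted p under 0.05 with all pools and 23 without the pair, with 0 lower in either, beside 1.85% and 2.68% of all genes. None passed the adjusted test, and 35 of the 49 were above background in at least 1 of the 11 pools. H4c8, a core histone H4 gene, was 10.34, 10.40 and 9.85 at remission, against 9.68, 9.85 and 9.79 at onset and 10.47, 10.49 and 10.50 in control (difference 0.61 without the pair, adjusted p = 0.0696). All onset pools were below all control pools, and remission pools 1 and 2 lay between them. Under median scaling in place of quantile normalization the list median was 0.08 with all pools and 0.20 without the pair. Chrna4, a nicotinic receptor subunit, was 12.13, 12.28 and 11.28 at remission, against 11.26, 11.25 and 11.22 at onset, and Sct, the hormone secretin, was 10.01, 10.23 and 9.50 against 9.39, 9.17 and 9.40, and neither passed (adjusted p = 0.0975 and 0.124).

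**Figure D4:**
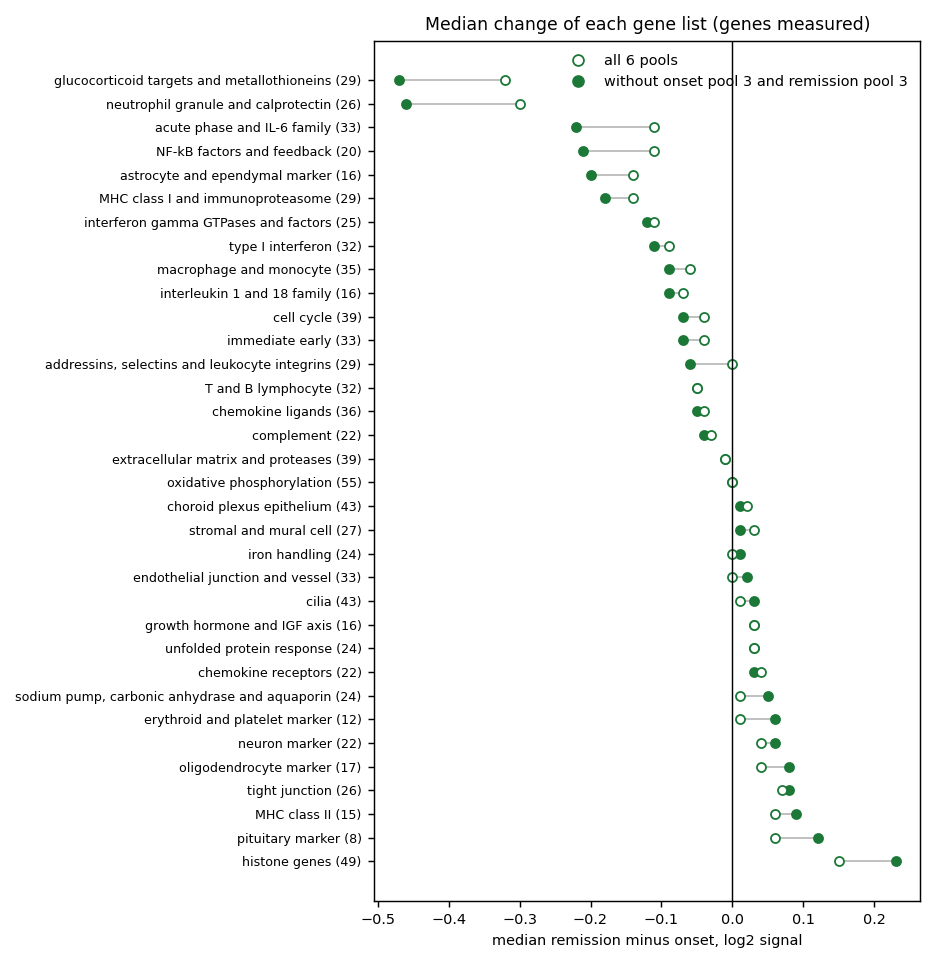
Median remission minus onset difference in log2 signal of each of the 34 gene lists, with all 6 pools (open points) and without onset pool 3 and remission pool 3 (filled points), and the number of genes measured in brackets. Glucocorticoid targets and neutrophil genes lie lowest, at -0.47 and -0.46 without the pair, and histone genes highest, at 0.23.

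What resolved and what persisted was then described for the genes that onset had changed. At onset, 219 genes were called higher than control (1.37% of genes) and 33 lower (0.207%). In probes this was 254 higher and 37 lower, and 322 higher and 4 lower under median scaling. These genes were chosen on the onset pools, so some return toward control is built into the choice and no test was made of it. The share of the onset change that remained is the remission minus control difference as a percent of the onset minus control difference. Its median over the 219 higher genes was 63.5% with all pools and 49.6% without the pair, and 22 of the 219 were above their onset mean with all pools. The median level of these genes above control was 0.37, 0.48 and 0.76 in the remission pools and 0.90, 0.75 and 0.77 in the onset pools. For the 33 lower genes the median kept was 57.9%, and 35.2% without the pair.

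The share kept is described for the lists with 5 or more genes called higher at onset, as the median over those genes without the close pair and then with all pools. It was 6.94% without the pair and 34.2% with all pools for the acute phase and IL-6 family (9 genes), 15.7% and 36.9% for glucocorticoid targets (7 genes), 19.2% and 40.2% for neutrophil genes (13 genes), and 21.1% and 45.8% for interferon gamma GTPases and factors (8 genes). Chemokine ligands kept 46.5% and 59.9% (6 genes), macrophage genes 64.2% and 75.7% (10 genes), and addressins, selectins and leukocyte integrins 73.4% and 79.3% (7 genes). T and B lymphocyte genes kept 87.9% and 89.3% (9 genes) and endothelial genes 95.7% and 96.5% (10 genes). The lists with 5 genes lay between, at 55.4% and 67.6% for immediate early genes, 61.7% and 67.5% for MHC class I and immunoproteasome, and 74.1% and 86.5% for complement. MHC class II, with 2 such genes only and so below this limit, kept 125% and 113%. Some members were below background in control, so that their own shares are uncertain.

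Several endothelial genes were called higher than control at remission when all pools were used. At remission 44 genes were called higher than control (0.276% of genes), and 7 of the 33 measured endothelial genes were among them, Cdh5, Emcn, Eng, Flt1, Ptprb, Robo4 and Tek. Flt1, a receptor for vascular endothelial growth factor, was 12.54, 12.66 and 12.91 at remission, against 12.55, 12.78 and 12.76 at onset and 11.80, 11.61 and 11.63 in control. Its remission minus onset difference was 0.00 (95% CI -0.24 to 0.24). Ptprb, an endothelial phosphatase that acts on Tek, was 12.19, 12.25 and 12.28 at remission, against 12.11, 12.11 and 12.20 at onset and 11.46, 11.26 and 11.12 in control (difference 0.10, 95% CI -0.17 to 0.37). Tek, the angiopoietin receptor, differed by 0.15 (95% CI -0.04 to 0.33) and Cdh5, the cadherin of endothelial junctions, by 0.18 (95% CI -0.01 to 0.38). All remission and onset pools of these 4 genes lay above all control pools. Cxcl12, a chemokine that retains CXCR4-bearing leukocytes, was 11.81, 11.92 and 12.04 at remission and 11.88, 11.84 and 11.96 at onset, with a control mean of 11.19. Over all 33 endothelial genes the median remission minus onset difference was 0.00. The members of the adhesion list varied. Selp, the P-selectin that captures leukocytes, was 8.71, 8.66 and 9.22 at remission and 9.75, 9.16 and 9.22 at onset, and was above background in 1 remission pool, 3 onset pools and 0 control pools. Icam1, the adhesion ligand of leukocyte integrins, was 12.76, 12.91 and 13.54 at remission against 13.95, 13.34 and 13.48 at onset, and kept 44% of its onset change without the pair and 62.6% with all pools. Podxl, a sialomucin of endothelium, kept 97.1% without the pair and 104% with all pools.

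**Figure D5:**
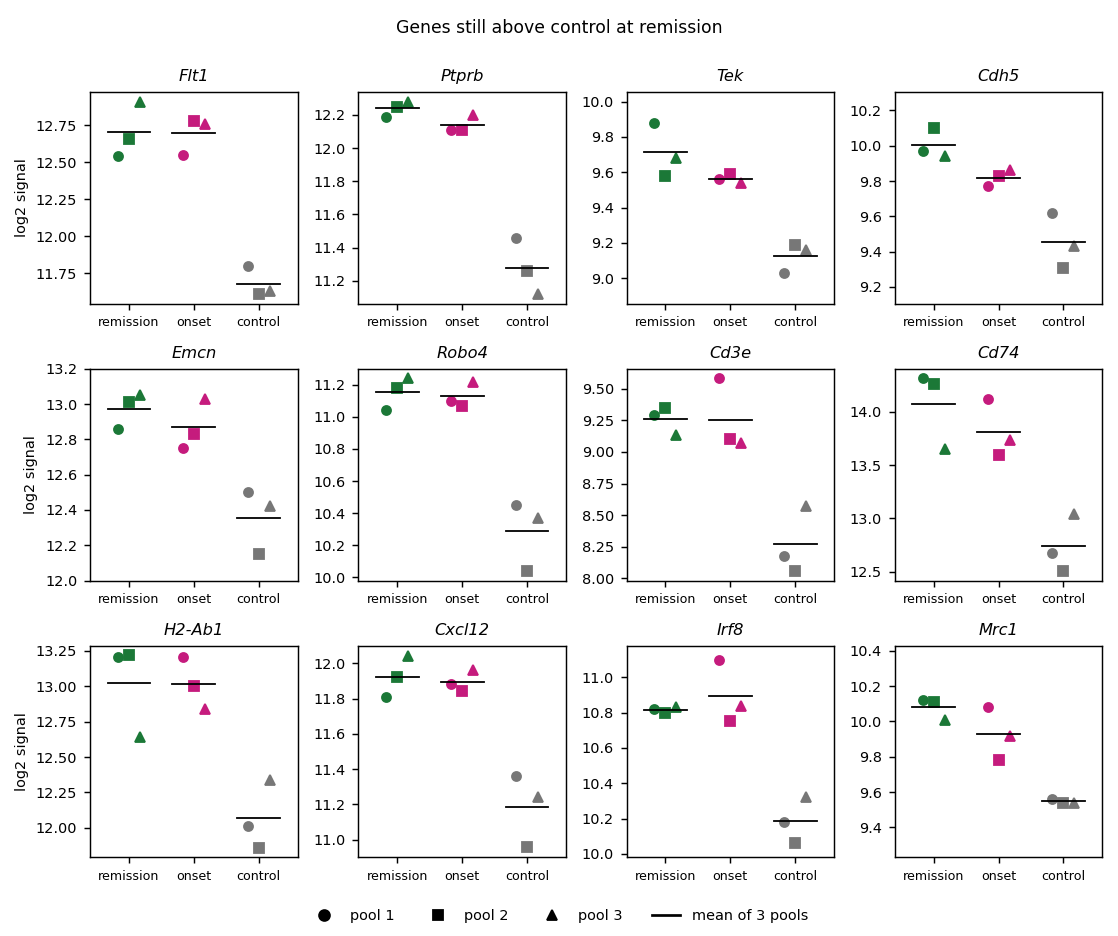
Log2 signal of 12 genes called higher at remission than in control, per pool, with remission, onset and control from left to right. Remission and onset pools overlap or lie side by side above control, as for Flt1, whose remission pools run between 12.54 and 12.91 and whose control pools run between 11.61 and 11.80.

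A few antigen presentation and lymphocyte genes were also called higher at remission than in control, 2 of 15 measured MHC class II genes, 0 of 29 MHC class I and immunoproteasome genes and 4 of 32 T and B lymphocyte genes, beside 0.276% of all genes. Of these lists 11, 20 and 9 genes were above background in at least 1 of the 11 pools. The 4 lymphocyte genes, Cd3e, Il7r, Jak3 and Lat, were above background in 0 control pools, and Il7r in only 1 remission pool. Their differences from control are therefore uncertain in size. Cd74, the chaperone of MHC class II molecules, was 14.31, 14.26 and 13.65 at remission, against 14.12, 13.59 and 13.73 at onset and 12.68, 12.51 and 13.04 in control. Its remission minus onset difference was 0.26 (95% CI -0.17 to 0.69). H2-Ab1, an MHC class II chain, was 13.21, 13.22 and 12.64 at remission and between 12.84 and 13.21 at onset (difference 0.01, 95% CI -0.35 to 0.37). Cd74 was highest in remission pools 1 and 2, the pools in which Socs3 and the 4 called GTPases were near control. Cd3e, a subunit of the T cell receptor complex, was 9.29, 9.35 and 9.13 at remission and 9.58, 9.10 and 9.07 at onset (difference 0.00, 95% CI -0.32 to 0.33). Irf8, a transcription factor of macrophages and dendritic cells, was 10.82, 10.80 and 10.83 at remission and 11.10, 10.75 and 10.84 at onset. Mrc1, a scavenger receptor of border macrophages, was 10.12, 10.11 and 10.01 against 10.08, 9.78 and 9.92. In contrast Ccl5, a T cell chemoattractant, was 9.30, 9.70 and 10.69 at remission, against 11.40, 10.66 and 10.77 at onset and 8.14, 7.94 and 8.59 in control, where it was not above background. All its remission pools were above all control pools.

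Over the 44 genes called at remission against control, the remission minus onset difference ran between -1.05 for Ccl5 and 0.30 for Cygb, with a median of 0.00, and 6 had an unadjusted p under 0.05. These genes were chosen for being high at remission, which raises their remission minus onset differences, so the values are a description. The count of calls against control rests on the pools and the fit used. It was 49 probes with all pools, 9 without the pair, 0 without remission pool 2 and 8 with the replicate number as a block. Of the genes above, Cd74 (adjusted p = 0.0334), H2-Ab1 (0.0334) and Flt1 (0.0334) still passed against control without the pair, with 4 named genes called in all, and among those that did not were Ptprb (0.0933), Robo4 (0.0826), Tek (0.12), Cdh5 (0.161), Cd3e (0.108) and Irf8 (0.192).

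Lists for the epithelium itself had medians near zero. The median difference was 0.02 over 43 epithelial genes (0.01 without the pair), 0.00 over 55 genes of oxidative phosphorylation (0.00) and 0.01 over 43 cilia genes (0.03). In either fit 0 genes of these lists passed limma's test. Of the 43 epithelial genes, 0 were lower and 2 higher at an unadjusted p under 0.05 with all pools, beside 2.34% and 1.85% of all genes. Kcne2, a potassium channel subunit of the apical membrane, was 12.52, 12.33 and 11.92 at remission, against 11.92, 11.69 and 12.05 at onset and 12.57, 12.80 and 12.34 in control (difference 0.62 without the pair, adjusted p = 0.29). Trpv4, an epithelial cation channel, was 13.65, 13.60 and 13.17 at remission and 12.98, 12.93 and 13.15 at onset (0.67, adjusted p = 0.275). Remission pools 1 and 2 were above all onset pools for both channels, and neither passed. Markers of tissue that can be dissected along with the CP were compared as whole lists. The median difference was 0.04 over 22 neuron genes (0.06 without the pair), 0.04 over 17 oligodendrocyte genes (0.08) and -0.14 over 16 astrocyte and ependymal genes (-0.20), of which Gfap and Slc1a2 were above background in no remission, onset or control pool. Over 8 pituitary genes the median difference was 0.06 (0.12 without the pair), and 4 of them were above background in at least 1 pool. Prl differed by 3.66 without the pair and did not pass (adjusted p = 0.167). The part of these tissues in the results was not tested.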

How the data were processed

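Gene expression was measured in 11 pools, and relapse pools entered the fit only for its shared spread. The authors deposited raw BeadStudio output, in which every probe has a linear signal intensity and a detection p-value. The authors also deposited quantile-normalized log2 values, made in R, which differ from those computed here by at most 0.0888. The labels and the methods name different amplification kits, and which pools shared a beadchip is not given in the sources used here. No background correction was stated, and uncorrected background makes fold changes of dim probes too small.

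Of 23983 probes, 5 repeats were left out. Log2 signals were quantile-normalized and fitted in R 4.3.3 with limma 3.58.1 as 1 mean per group over all pools, without a filter, and contrasts were tested two-sided with Benjamini-Hochberg adjustment over 23978 probes. Prior degrees of freedom were 5.53. Current symbols were assigned to 20917 probes through the platform table, 20905 of them by a match to RefSeq, and 3691 genes have more than 1 probe. The procedure was tested on simulated data.

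Genes named are, by rule, the 12 lowest and 12 highest differences among genes without overlap between remission and onset, the 10 smallest p in each direction without the close pair, the 10 onset genes keeping least and the 10 keeping most of their change (5 each for lower ones), up to 4 members per list with the smallest p, genes the paper names and all genes called at remission. The further genes called without the pair, the unnamed probes, Fkbp5, Per1, S100a8, Saa3, Stat3, Il6, Ttr, Prl, Gh and the motifs were added after their values were seen. The members, lists and rules were chosen with earlier results of these data known. The lists were written from general knowledge and share members.

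Replicate numbers were checked for pairing. Deviations of same-numbered remission and onset pools from their group means correlated at 0.46, 0.33 and 0.26 over 8371 probes above background in all pools, so the numbers were treated as a possible pairing, a hint from the data that no label states. With the replicate block, 0 probes were called with all pools and 30 without the close pair.

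Each count was recomputed with the authors' values, neqc background correction (offset 16), median scaling, probes above background in at least 2 pools, only the groups compared, the replicate block, array weights, trended robust moderation, 1 probe per gene and each pool left out in turn.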

Additional observations from a re-analysis of the deposited data

How the results depend on the processing

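With all 6 pools, 0 probes were called between remission and onset under every alternative of scaling, filter, weights, moderation and block. Leaving out 1 pool gave between 0 and 71, the 71 without remission pool 3, and both close pools left out gave 44. An unadjusted p under 0.05 was held by 983 probes. Without the pair, the 44 calls became 26 with neqc, 24 with only the groups compared and 1217 at an unadjusted p under 0.05. The replicate block gave 30 there and array weights 57. Leaving out a further pool gave between 12 and 45, with 12 without remission pool 1 (6 lower, 6 higher), 21 without remission pool 2 (10 lower, 11 higher) and 23 without onset pool 1. For onset against control, 291 calls became 182 with neqc and 1736 with array weights. Leaving out 1 pool gave between 41 and 306, with 41 and 42 without control pools 2 and 1, and 99 and 106 without onset pools 1 and 3. For remission against control, 49 calls became 11 with neqc, 31 with median scaling, 16 with only the groups compared, 8 with the replicate block, 280 with array weights and 9 without both close pools. Leaving out 1 pool gave between 0 (without remission pool 2) and 88 (without control pool 3), with 4 and 7 without control pools 1 and 2, 14 without remission pool 1 and 18 without remission pool 3. The median remission minus onset difference of genes called higher at onset was -0.28, and between -0.36 and -0.21 with 1 pool left out. The predominance of lower probes was lost without remission pool 1 or 2 as given above. Differences near zero can change sign with the setting, and median scaling moved the MHC class II list median to -0.01 with all pools. The cause of these differences was not tested.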

Other observations

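Several genes that remission shared with onset were near or below the control mean in the 2 relapse pools, which enter no comparison above. Flt1 was 11.55 and 11.78 in the relapse pools, Robo4 was 10.08 and 10.17, Emcn was 12.11 and 12.09 and Cxcl12 was 11.14 and 11.05. Cd3e, at 9.30 and 9.52, and Cd74, at 13.31 and 13.77, were above the control means there. Socs3 was 10.32 and 10.16 and Irgm1 was 10.11 and 9.92 at relapse, near control.

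Values of 3 leukocyte genes that did not pass between remission and onset are given here. Adgre1, the F4/80 antigen of macrophages, was 11.26, 11.19 and 10.71 at remission and 10.97, 10.25 and 10.61 at onset, a difference of 0.62 without the pair (adjusted p = 0.6). Ccr7, the homing receptor of dendritic cells and naive T cells, was 8.48, 8.34 and 9.08 at remission and 9.63, 8.93 and 8.89 at onset, and was above background in 1 remission pool and 3 onset pools, at least 1.26-fold lower without the pair (adjusted p = 0.188). Fcgr4, an activating Fc receptor, was 9.08, 9.56 and 10.63 at remission and 10.77, 10.42 and 10.59 at onset, a difference of -1.28 (adjusted p = 0.188).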
